A study of Mus musculus with 8 samples.

Results

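The genes described here are the 5 NF-κB subunit genes Nfkb1, Nfkb2, Rela, Relb and Rel, the inhibitor genes Nfkbia, Nfkbie and Nfkbiz, and the feedback genes Tnfaip3 and Birc3. They were taken from the array by gene name, which gave 12 probes for the 10 genes, out of 39429 probes under 31791 gene or transcript names. All arrays hold RNA of the murine line IEC10, immortalized epithelial cells of the intestine that carry a firefly luciferase transgene under the Mx2 promoter. The cells were kept on transwell inserts for 21 days until they were polarized. Control cells were left without stimulus (2 arrays, replicates 2 and 3), and the others received 20 ng/mL IFN-λ2, a type III IFN (3 arrays, replicates 1 to 3), or 500 U/mL IFN-β, a type I IFN (3 arrays, replicates 1 to 3), each for 9 h. The study set the type III against the type I IFN response of polarized epithelium, and a single cell line stands for that epithelium here. Nothing in the labels says that replicates came from separate cultures, so p-values measure the spread between these arrays, which may be technical.

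NF-κB is a family of dimeric transcription factors. In resting cells the dimers are held in the cytoplasm by IκB proteins, and receptors for TNF, IL-1 or microbial products release them through the IκB kinase (IKK) complex, while a non-canonical branch processes the Nfkb2 product p100 to p52, the partner of RelB. Several of the genes that NF-κB switches on encode its own subunits and its own brakes, among them IκBα (Nfkbia), IκBε (Nfkbie), the ubiquitin-editing enzyme A20 (Tnfaip3) and the ubiquitin ligase cIAP2 (Birc3). In the gut epithelium the pathway is known for its part in host defence, cell survival and the tolerance of microbial products.

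Values are normalized gPS units, the background-subtracted green signal of a probe after scaling every array to a 75th percentile of 1500, with a floor of 15 units. Factors of 0.691 to 0.769 brought the 8 arrays to that percentile, between 20991 and 24252 probes per array were well above background, and no probe was saturated. Limma tested the 25972 probes that lay above the floor on at least 2 arrays, and a probe is called where its Benjamini-Hochberg adjusted p over all of these is under 0.05. Replicate numbers coincide with slides, and each group has 1 position on the slides, so that position and treatment cannot be told apart. Both IFNs gave their known response: the 4 IFN-stimulated genes Isg15, Usp18, Irf7 and Ifit1, listed as a reference, were higher after each, with a median log2 difference from control of 3.76 for IFN-λ2 and 3.62 for IFN-β. Of 8 epithelial markers, 7 were well above background on all 8 arrays, whereas the intestinal transcription factor gene Cdx2 was so on none. Of these 7, Krt19 was higher on IFN-λ2 arrays than on control arrays (log2 difference 0.41, adjusted p = 0.0211) and than on IFN-β arrays (0.58, adjusted p = 0.00552), and Cdh1 than on control arrays (0.44, adjusted p = 0.0278). The summed signal of the epithelial list was 302014 to 317008 units on control, 342072 to 365048 on IFN-λ2 and 304658 to 347937 on IFN-β arrays. Krt18 made up most of each sum, with a mean of 204042 units in control, 240364 after IFN-λ2 and 223069 after IFN-β. It was not called for IFN-λ2 against control (limma, log2 difference 0.24, adjusted p = 0.0916). Nor were Epcam, Krt8, Cldn7 and Vil1, with log2 differences of 0.03, 0.11, -0.05 and -0.15. Of 6 leukocyte markers, Cd68, Itgam, Cd3e and Csf1r were well above background on all 8 arrays and Ptprc (CD45) on 2. The summed signal of that list was 10741 to 14357 units on control arrays, 8580 to 10851 on IFN-λ2 arrays and 9075 to 16364 on IFN-β arrays. Of these genes Itgam had a mean of 2870 units after IFN-λ2 against 7122 in control and 6710 after IFN-β, and did not pass the test against control (adjusted p = 0.143). The part of these epithelial and leukocyte transcripts in the results was not tested. Fibroblast markers were near background, with a summed signal of at most 143 units and none of 5 above background on all arrays. Of 3 endothelial markers Kdr was well above background on all arrays and Cdh5 on none. A dimmer Kdr probe was called higher with IFN-λ2 than control (log2 difference 1.65, adjusted p = 0.00478) and than IFN-β (1.55, adjusted p = 0.00596), which the brighter one was not (-0.07 and -0.10).

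The sequences just upstream of the members' starts are shown because the genes include known NF-κB targets and differed in their response. RefSeq windows on GRCm38.p6, from 250 bases before to 50 bases after an annotated start, were given for 7 of the 10 genes, the exceptions being Nfkb1, Relb and Nfkbiz. They were searched on both strands for the κB decamer. It occurred in the windows of 5 of the 7 genes, Nfkb2, Nfkbia, Nfkbie, Rel and Tnfaip3, against 9.55% of the 27025 genes in the table. The last 150 bases before the start are printed 5′ to 3′ on the gene's strand, with matches in capitals, overlapping matches running together.
Nfkb2, chr19:46304587-46304736, + strand: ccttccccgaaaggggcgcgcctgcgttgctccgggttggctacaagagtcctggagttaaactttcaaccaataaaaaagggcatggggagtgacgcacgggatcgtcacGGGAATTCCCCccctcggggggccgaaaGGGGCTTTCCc
Nfkbie, chr17:45555550-45555699, + strand: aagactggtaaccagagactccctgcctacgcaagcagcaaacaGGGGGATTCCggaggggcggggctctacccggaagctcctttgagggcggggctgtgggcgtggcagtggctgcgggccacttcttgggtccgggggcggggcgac
Nfkbia, chr12:55492648-55492797, - strand: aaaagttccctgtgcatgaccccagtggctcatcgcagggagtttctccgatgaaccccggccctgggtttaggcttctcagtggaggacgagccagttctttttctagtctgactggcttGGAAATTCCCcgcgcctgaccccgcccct
Tnfaip3, chr10:19015411-19015560, - strand: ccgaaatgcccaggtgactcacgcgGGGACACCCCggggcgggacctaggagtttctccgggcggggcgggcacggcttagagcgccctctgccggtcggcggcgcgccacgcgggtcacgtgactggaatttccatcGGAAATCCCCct
Birc3, chr9:7873171-7873320, - strand: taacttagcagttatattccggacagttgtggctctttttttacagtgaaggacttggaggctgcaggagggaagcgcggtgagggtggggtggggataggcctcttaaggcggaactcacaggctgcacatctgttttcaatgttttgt

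In the Nfkb2 window the matches began 39, 38 and 11 bases before the start, in the Nfkbie window 106, in the Nfkbia window 29 and in the Tnfaip3 window 125 and 12 bases before it. In the Rel window, which is not printed, they began 92 and 91 bases before the start. Birc3 and Rela had no match in their windows. Further windows of Nfkb2 and Tnfaip3 at other annotated starts are not shown. Those of Nfkb2 held matches as well, and that of Tnfaip3 held none. The core of the IFN-stimulated response element, searched on both strands as GAAA repeated after a gap of any 2 bases, was in none of the 7 genes' windows, against 3.99% of all genes. A match describes these letters and is no evidence of binding, and the absence of one covers only these windows.

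IFN-λ2 raised 4 of the 11 tested probes relative to control, those of Birc3, Nfkbie and Nfkb2 and 1 of the 2 Relb probes, against 10.03% of all tested probes called higher. Their increases lay between 22.6% and 48.5%. No member probe was called lower, against 8.55% of all. The shares of all tested probes include dim ones, while the 11 tested member probes were well above background. Among probes well above background on all arrays of at least 1 group, 12.6% were called higher and 11.2% lower after IFN-λ2. After IFN-β, none of the 11 was called in either direction, against 1.44% of all probes called higher and 0.208% called lower. None of these probes reached a called 2-fold change in any comparison. Of all tested probes 2.67% were called with at least a 2-fold increase and 1.19% with a decrease of that size when IFN-λ2 was set against control. For IFN-β these shares were 0.882% and 0.0308%, and in the direct comparison of the IFNs 1.44% and 0.774%. At an unadjusted p under 0.05, 7 member probes were higher with IFN-λ2, against 17.05% of all tested probes, and 1, for Nfkbia, with IFN-β, against 6.97%. The count of 4 called for IFN-λ2 depended on the setting. It was 1 with normexp background correction, 2 with the replicate block, 1 with the methods' t-test and 7 with a trended robust variance. It also changed when 1 array was left out. For IFN-β the count stayed at 0 with normexp background correction, quantile normalization, the replicate block and a trended robust variance, and without any 1 array.

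**Figure D1:**
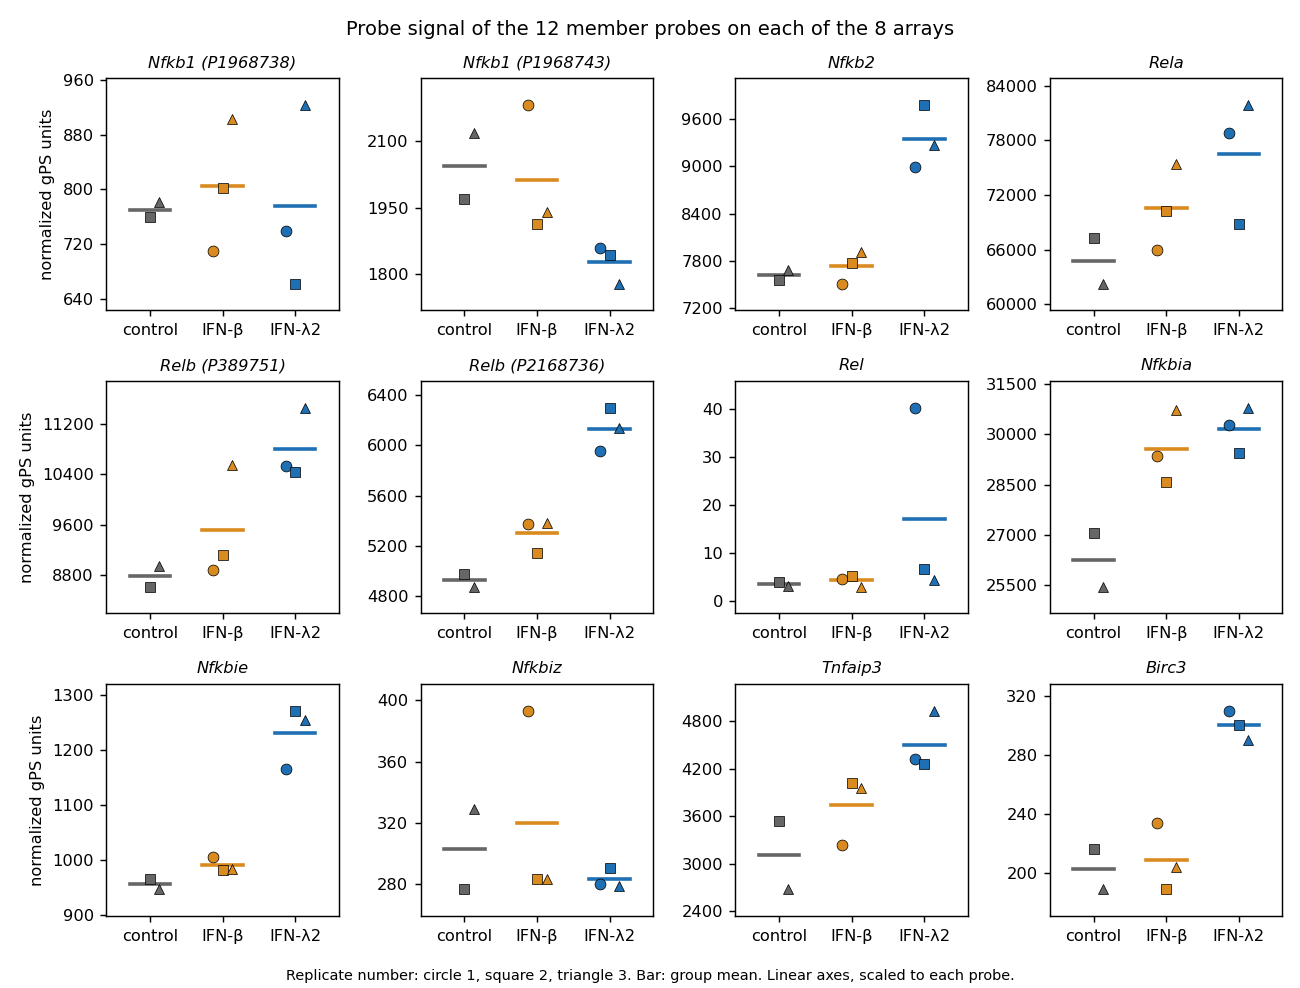
Signal of each of the 12 member probes in normalized gPS units (y axis, linear and scaled to each probe) on every array, by group, with the group mean as a bar and the replicate number, which is also the slide, as the symbol. For Nfkb2, Nfkbie and Birc3 the 3 IFN-λ2 arrays lie above all control and IFN-β arrays, and the Rel probe is near background on all arrays but 1.

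Among the subunits, Nfkb2 and Relb, the pair of the non-canonical branch, gave the called differences. Nfkb2 measured 7554 and 7684 units in the control arrays, 8989, 9773 and 9270 after IFN-λ2, with 7513, 7771 and 7909 after IFN-β. All IFN-λ2 arrays were above all others, while control and IFN-β arrays overlapped. The log2 difference between IFN-λ2 and control was 0.29 ± 0.07 (SE; limma, adjusted p = 0.0276), and with the replicate number as a block it was 0.32 with adjusted p = 0.0513. In the comparison of IFN-β with control, the log2 difference of Nfkb2 was 0.02 (95% confidence interval -0.14 to 0.18). Its probe, A_51_P454217, matches chr19:46386146-46386285 on mm9, the build of the array files. It covers 140 bases there and thus crosses a gap in the genome, as a probe over a splice junction does:
Nfkb2 probe: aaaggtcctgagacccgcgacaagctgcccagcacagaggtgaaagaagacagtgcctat

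Relb was read by a pair of probes that share 9 bases, so they are not independent. Probe A_55_P2168736 (chr7:20191773-20191832, mm9) measured 4976 and 4879 units in control, 5953, 6295 and 6138 after IFN-λ2, with 5375, 5146 and 5380 after IFN-β. The 3 groups did not overlap, with IFN-β between the others. Its log2 difference between IFN-λ2 and control was 0.31 ± 0.06 (limma, adjusted p = 0.0179, or 0.0557 with the replicate block). Probe A_51_P389751 (chr7:20191722-20191781) gave 8623 and 8946 units in control, 10524, 10438 and 11445 after IFN-λ2, with 8885, 9118 and 10543 after IFN-β. Here 1 IFN-β array reached the range of IFN-λ2, and the log2 difference between IFN-λ2 and control, 0.30 ± 0.10, was of like size but not called (adjusted p = 0.0753). A further Relb probe, listed under a transcript identifier and so outside the 12, lies at chr7:20203058-20203117, was dim and differed the other way, at 74.2 ± 2.65 units in control (SD, n = 2), 61.7 ± 9.23 after IFN-λ2 and 84.5 ± 12.9 after IFN-β (SD, n = 3 each), with adjusted p = 0.282 for IFN-λ2 against control.

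The subunits of the canonical dimer were not called in any comparison. Rela, which encodes p65, was at 67330 and 62286 units in control, 78823, 68862 and 81857 after IFN-λ2, with 65996, 70213 and 75413 after IFN-β. The IFN-λ2 arrays lay above the control arrays by a log2 difference of 0.24 (95% confidence interval -0.01 to 0.48, adjusted p = 0.160), and IFN-β overlapped both. Nfkb1, which encodes p105 and p50, has probes whose starts are 6929 bases apart on chromosome 3 and which did not move alike. Probe A_55_P1968743 ran lower after IFN-λ2, at 1858, 1843 and 1779 units, than in control, at 1969 and 2118 units, a log2 difference of -0.16 (95% confidence interval -0.36 to 0.04, adjusted p = 0.227), and measured 2180, 1912 and 1941 units after IFN-β. Probe A_55_P1968738 spread from 662 to 923 units within the IFN-λ2 arrays alone, a range that held both control arrays, 759 and 782 units. Its log2 difference between IFN-λ2 and control was -0.01 (95% confidence interval -0.38 to 0.37). Rel, the gene of c-Rel, had a probe well above background on 1 of 8 arrays, IFN-λ2 replicate 1 at 40.3 units, and at 2.94 to 6.60 units on the others. It was not tested, and no fold is given.

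Of the inhibitors, Nfkbie was called after IFN-λ2. Its probe (A_51_P235123, chr17:45700000-45700059, mm9) gave 965 and 946 units in control, 1166, 1272 and 1256 after IFN-λ2, with 1005, 982 and 984 after IFN-β. IFN-λ2 arrays were all above the others, and the IFN-β arrays lay just above control. The difference between IFN-λ2 and control was 28.7%, or 0.36 ± 0.07 on the log2 scale (limma, adjusted p = 0.0128, and 0.0413 with the replicate block). For IFN-β it was 0.05 on the log2 scale (95% confidence interval -0.11 to 0.21).

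Nfkbia gave similar values with both IFNs. Its probe (A_51_P295192) matches chr12:56590945-56591440, a stretch of 496 bases, and measured 27059 and 25462 units in control, 30291, 29437 and 30786 after IFN-λ2, with 29369, 28571 and 30744 after IFN-β. Both stimulated groups lay above control and overlapped each other. The log2 differences from control were 0.20 ± 0.07 for IFN-λ2 (adjusted p = 0.0929) and 0.17 ± 0.07 for IFN-β (adjusted p = 0.401), neither called, and the direct log2 difference between the IFNs was 0.03 (95% confidence interval -0.12 to 0.18). Nfkbiz, which encodes the nuclear IκBζ, varied more between arrays than between groups, with 276 and 329 units in control, 280, 290 and 278 after IFN-λ2, with 393, 283 and 283 after IFN-β. Its log2 difference was -0.09 for IFN-λ2 (95% confidence interval -0.47 to 0.29) and 0.07 for IFN-β.

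Birc3 had the largest called difference of the members. It measured 216 and 189 units in control, 310, 300 and 290 after IFN-λ2, with 234, 189 and 204 after IFN-β. Control and IFN-β arrays overlapped, and IFN-λ2 arrays stood above both. Compared with control the signal after IFN-λ2 was 1.48-fold (95% confidence interval 1.24 to 1.78), a log2 difference of 0.57 ± 0.11 (limma, adjusted p = 0.0140, and 0.0418 with the replicate block), whereas for IFN-β the log2 difference was 0.04 (95% confidence interval -0.22 to 0.30). The Birc3 probe, A_55_P1980287, lies at chr9:7854409-7854468 on mm9:
Birc3 probe: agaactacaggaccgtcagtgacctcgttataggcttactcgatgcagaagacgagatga
A second probe in the gene, listed under a transcript identifier, was well above background on 0 of 8 arrays. As a description without a test, the probes whose log2 values followed Birc3 most closely over the 8 arrays, among 20247 probes well above background throughout, were Mgst1 (Pearson's r = 0.990 and, for its second probe, 0.979), ENSMUST00000115934 (0.989), Atp1b1 (0.980) and Guca1b (0.977). These arrays share slides and 3 groups, which a correlation over them includes.

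Tnfaip3 had a difference of similar size with a wider spread. Its probe (A_55_P2053838, chr10:18720776-18720835) gave 3540 and 2675 units in control, 4324, 4258 and 4930 after IFN-λ2, with 3240, 4023 and 3961 after IFN-β. All IFN-λ2 arrays were above all others, but the control arrays differed from each other by more than the IFN-λ2 arrays did. The log2 difference between IFN-λ2 and control was 0.55 ± 0.15 with adjusted p = 0.0507, just outside the threshold, and it moved from 0.34 without control replicate 3 to 0.75 without control replicate 2, where it was called (adjusted p = 0.0388). It was called without IFN-β replicate 1 as well (adjusted p = 0.0423), and over the fits that left out 1 array its adjusted p ran from 0.0388 to 0.240. For IFN-β the log2 difference was 0.28 ± 0.15 (adjusted p = 0.550).

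**Figure D2:**
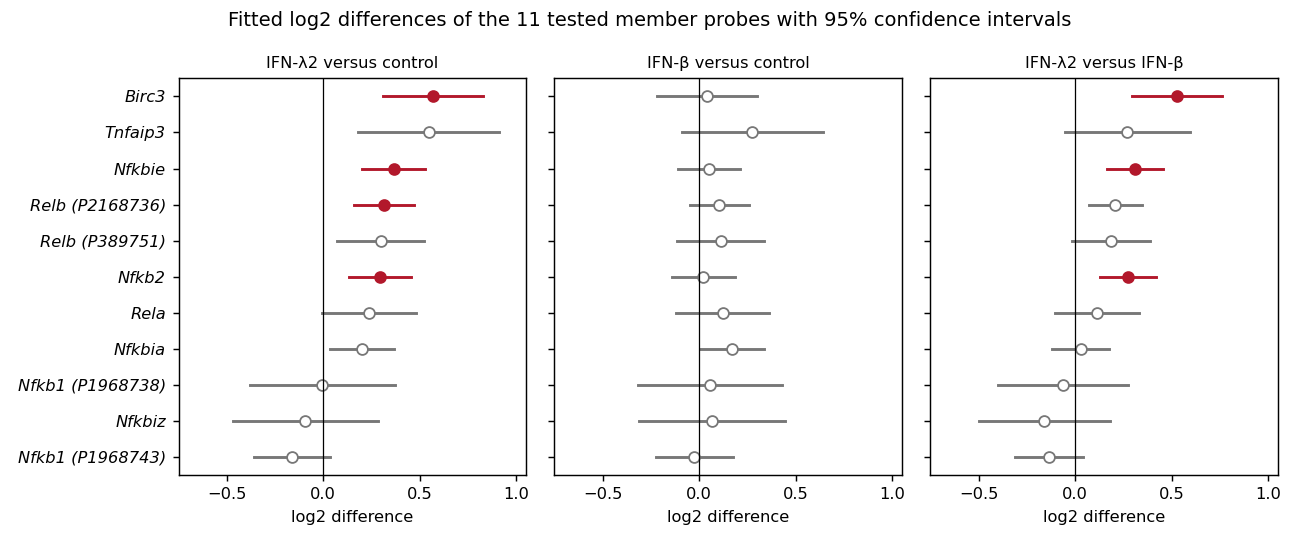
Fitted log2 differences (x axis) of the 11 tested member probes in the 3 comparisons, with 95% confidence intervals as lines and called probes filled in red. Called differences from control after IFN-λ2 run from 0.29 (Nfkb2) to 0.57 (Birc3), and no probe is called for IFN-β against control. The fit shown has no replicate block. With the block, Nfkbie and Birc3 alone stay called for IFN-λ2 against control, and Birc3 alone between the IFNs.

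When the IFNs were compared directly, 3 of the 11 probes were called higher after IFN-λ2 than after IFN-β, those of Birc3, Nfkbie and Nfkb2, against 5.53% of all tested probes, and 0 were called lower, against 5.68%. At an unadjusted p under 0.05 there were 4, the further one being a Relb probe, against 11.7% of all tested probes. Birc3 was 44.2% higher (log2 difference 0.53 ± 0.10, limma, adjusted p = 0.0170, and 0.0353 with the replicate block). Nfkbie was 24.2% higher (0.31 ± 0.06 on the log2 scale, adjusted p = 0.0205) and Nfkb2 20.8% higher (0.27 ± 0.06, adjusted p = 0.0337). With the replicate block the adjusted p was 0.0560 for Nfkbie and 0.0646 for Nfkb2. The Relb probe A_55_P2168736 was 15.6% higher (adjusted p = 0.0657, called in 5 of the 10 other settings) and Tnfaip3 20.7% higher (adjusted p = 0.273), neither called, although in both the groups did not overlap. Because each difference from control shares the same 2 control arrays, the direct comparison is the test of the difference between the IFNs.

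Groups that do not overlap were counted as well. Every IFN-λ2 array was above every control array for 8 of the 11 probes, against 24.7% of all tested probes, and below for 1, an Nfkb1 probe, against 24.9%. For IFN-β against control it was 3 above, for Relb, Nfkbia and Nfkbie, against 15.1%, and 0 below, against 11.4%. Between IFN-λ2 and IFN-β it was 5 above, for Nfkb2, Relb, Nfkbie, Tnfaip3 and Birc3, against 16.05%, and 1 below, for Nfkb1, against 16.3%. The median log2 difference over the 11 probes was 0.29 for the contrast of IFN-λ2 and control, 0.07 for that of IFN-β and control and 0.19 between the IFNs, where the medians over all tested probes were 0.00, 0.02 and -0.02.

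Since each slide held 1 replicate number, differences were also taken within slides. Birc3 was higher after IFN-λ2 than in the control of the same slide by 0.47 and 0.62 on the log2 scale, and higher than after IFN-β on 3 of 3 slides, by 0.41 to 0.67. For Nfkbie the differences within slides were 0.40 and 0.41 against control and 0.21 to 0.37 against IFN-β. Nfkb2 gave 0.27 and 0.37 against control and 0.23 to 0.33 against IFN-β. The called Relb probe gave 0.33 and 0.34 against control. For Tnfaip3 the slides differed, with 0.27 and 0.88 against control. Birc3 after IFN-β was below control on 1 slide and above it on the other, by -0.19 and 0.11.

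**Figure D3:**
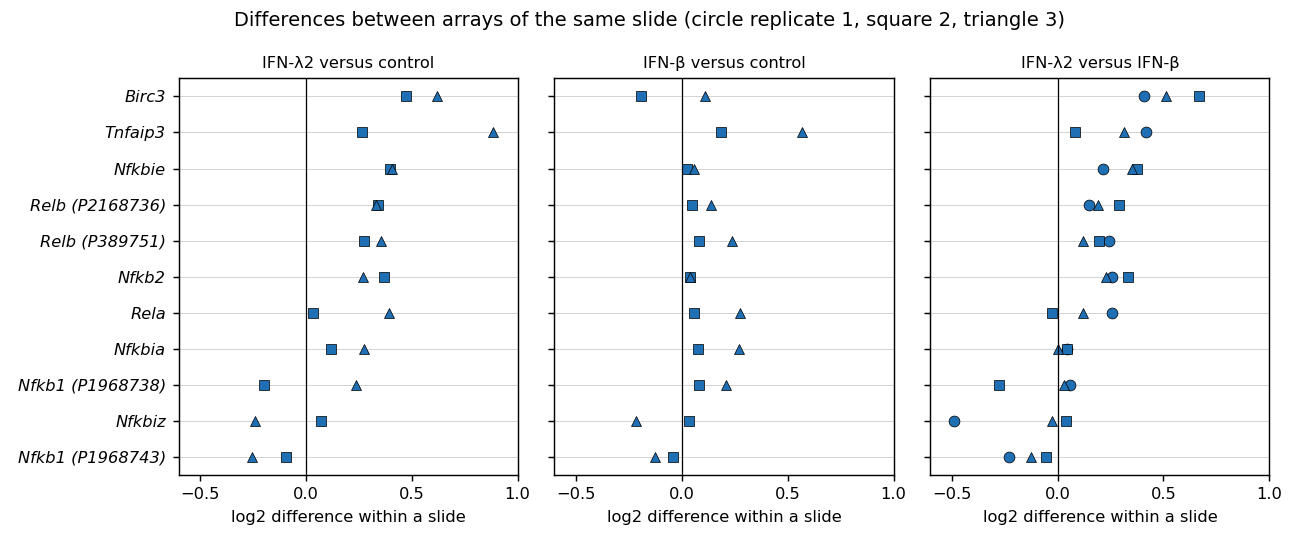
Log2 differences (x axis) between arrays of the same slide for the 11 tested member probes, 1 symbol per slide, in the 3 comparisons. For Birc3, Nfkbie, Nfkb2, both Relb probes and Tnfaip3, all slides show higher signal after IFN-λ2 than in control and after IFN-β.

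The calls rested on few arrays. Leaving out 1 array at a time, Nfkbie was still called against control in 7 of 8 fits (lost without control replicate 3), Birc3 in 6 (lost without control replicate 3 or IFN-λ2 replicate 1), the Relb probe in 4 (lost without either control array or IFN-λ2 replicate 2 or 3) and Nfkb2 in 1, the fit without IFN-β replicate 1. Without control replicate 3, 0 of the 11 probes were called. That fit leaves a single control array, which is assumed to vary like the other groups. Against IFN-β, Birc3 was called in 5 of 8 fits (lost without IFN-λ2 replicate 1 or 2 or IFN-β replicate 3), Nfkbie in 4 (lost without IFN-λ2 replicate 2 or 3 or IFN-β replicate 2 or 3) and Nfkb2 in 2, those without a control array, and 0 were called without IFN-λ2 replicate 2 or without IFN-β replicate 3. No sign turned for these genes, whose log2 differences from control lay between 0.34 and 0.40 for Nfkbie, 0.47 and 0.67 for Birc3, 0.29 and 0.34 for the Relb probe and 0.26 and 0.32 for Nfkb2. Over 10 other processing and test settings the adjusted p against control ran from 0.00670 to 0.0633 for Nfkbie, 0.00628 to 0.0637 for Birc3, 0.00502 to 0.137 for the Relb probe and 0.0115 to 0.129 for Nfkb2. Between the IFNs it ran from 0.00757 to 0.0588 for Birc3, 0.0118 to 0.107 for Nfkbie and 0.0138 to 0.117 for Nfkb2.

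The other genes of the pathway were read from 5 lists by role, 119 genes of which 110 were tested, with 1 probe per gene. IFN-λ2 raised 29 over control and lowered 7, that is 26.4% and 6.36% of the tested genes, beside 10.03% and 8.55% of all probes. After IFN-β, 9 were higher (8.18%) and 0 lower, beside 1.44% and 0.208% of all probes. In the direct comparison, IFN-λ2 gave 10 higher and 7 lower genes than IFN-β, 9.09% and 6.36%, where all probes gave 5.53% and 5.68%. Each list gene was read from its brightest tested probe, while the shares of all probes include dim ones. Among probes well above background on all arrays of at least 1 group, 12.6% were higher and 11.2% lower after IFN-λ2 than control. For IFN-β these shares were 1.88% and 0.315%, and between the IFNs 7.03% and 7.72%. The median log2 differences of the 110 genes were 0.15, 0.07 and 0.05. The lists hold genes that are known to be induced by IFNs themselves, such as Tap1, Psmb9, Irf1, Cxcl10, Tlr3 and Nlrc5, and NF-κB activity itself was not measured. Leaving out control replicate 2 or control replicate 3 took the count of 29 to 18 in each case, and leaving out IFN-λ2 replicate 1 or 3 took it to 19. With the replicate block, 21 of the 29 were still called, and Myc, Myd88, Nfkbid, Sod2, Tlr2, Tnfaip2, Tnip1 and Traf2 were not (adjusted p from 0.0541 to 0.0887). Between the IFNs the block took away Lamb3 and Tnip1 of the 10 higher genes and Csf3 and Cxcl1 of the 7 lower ones (adjusted p from 0.0647 to 0.0922). With normexp background correction, 16 of the 29 were still called. The calls of Ikbkg, Myd88, Nfkbid, Otulin, Sod2, Tbk1 and Tlr2 were lost there, as were those of Tnfaip2, Tnfaip8, Tnfrsf1b, Tnip1, Traf1 and Traf2. Of the 7 genes lower than control, Bcl3 alone was still called. Between the IFNs, normexp took away Lcn2, Tnip1, Traf1 and Vegfa of the higher genes and Bcl3, Cd40 and Csf3 of the lower ones. The count of 9 after IFN-β fell to 5 with the replicate block, without Ccnd1, Csf1, Rnf31 and Tlr3, and the 7 lower after IFN-λ2 fell to 4, without Cxcl5, Fas and Il1r1. Leaving out IFN-β replicate 2 or 3 also took the 9 to 5. The 7 lower after IFN-λ2 became 3 without control replicate 2, 2 without control replicate 3, 4 without IFN-λ2 replicate 1 and 3 without IFN-λ2 replicate 2. Between the IFNs, the 10 higher became 5 without IFN-λ2 replicate 1 or 3 and 6 without IFN-β replicate 1, and the 7 lower became 2 without IFN-λ2 replicate 1 or IFN-β replicate 3, 3 without IFN-λ2 replicate 2 or IFN-β replicate 1 and 4 without IFN-λ2 replicate 3.

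**Figure D4:**
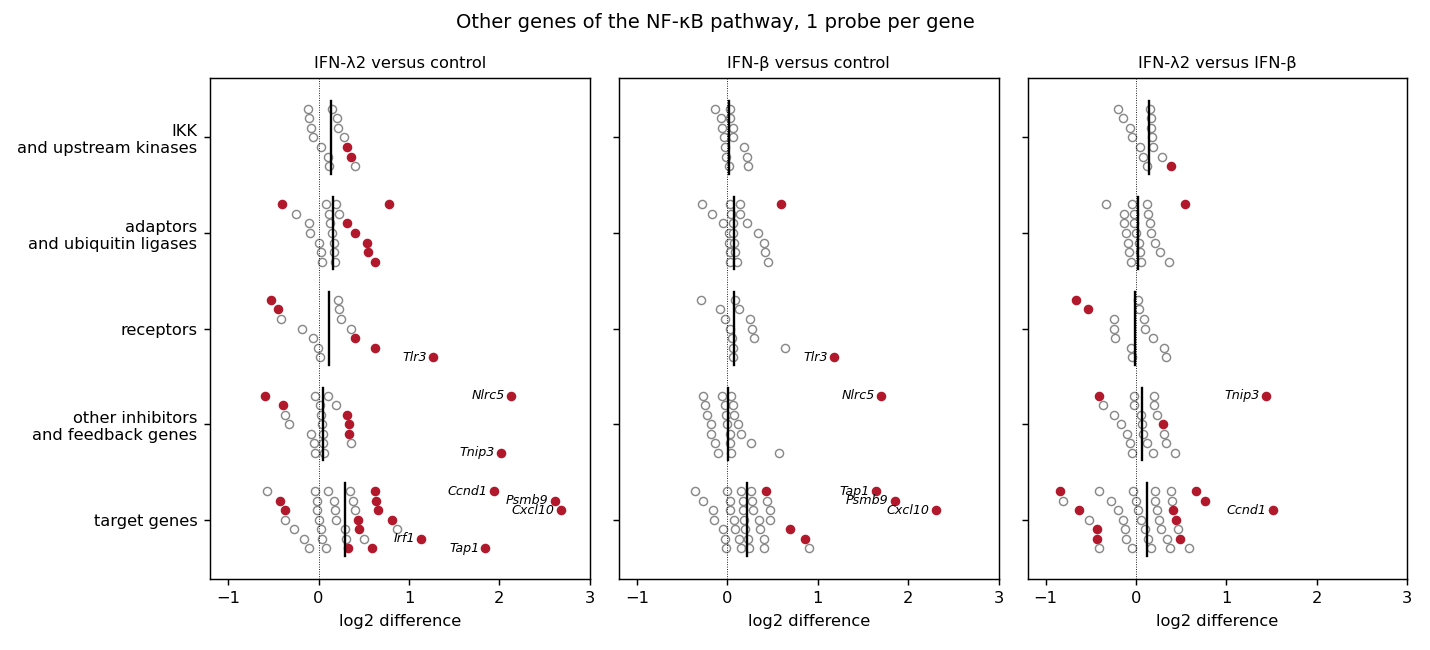
Log2 differences (x axis) of the tested genes of the 5 pathway lists, 1 point per gene, in the 3 comparisons, with called genes in red, list medians as black bars and called genes of at least 2-fold named. Against control, the genes named for IFN-λ2 have log2 differences from 1.13 to 2.68, and Tnip3 and Ccnd1 are the named genes between the IFNs.

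At the receptors, 3 of 14 tested genes rose and 2 fell after IFN-λ2, 21.4% and 14.3% where all probes gave 10.03% and 8.55%. Tlr3, the endosomal sensor of double-stranded RNA, rose 2.41-fold after IFN-λ2 (log2 1.27 ± 0.19, adjusted p = 0.00586) and 2.27-fold after IFN-β (adjusted p = 0.0356, not called with the replicate block), and was the single receptor gene called after IFN-β. Tnfrsf1b, which encodes TNF receptor 2, rose 1.54-fold after IFN-λ2 (adjusted p = 0.0190) and Tlr2, a receptor of bacterial lipoproteins, 1.33-fold (adjusted p = 0.0491, and 0.0887 with the replicate block, so not called there). After IFN-β the Tlr2 signal was 1.55-fold control, just short of a call (adjusted p = 0.0506), and the IFNs were not called different for it (adjusted p = 0.219). Il1r1, the signalling receptor of IL-1, fell by a log2 difference of -0.45 from control with IFN-λ2 (adjusted p = 0.0257, and 0.0525 with the block) and was lower than after IFN-β by a log2 difference of -0.53 (adjusted p = 0.0129). The flagellin receptor gene Tlr5 fell too, by a log2 difference of -0.53 from control (adjusted p = 0.0134). Cd40 was dim, at 16.6 to 24.9 units after IFN-λ2, with 29.3 to 34.9 after IFN-β, and was called lower after IFN-λ2 than after IFN-β (adjusted p = 0.0323), a direction that turned with normexp background correction.

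Of 22 tested adaptors and ubiquitin ligases, 6 rose (27.3%, beside 10.03% of all probes) and 1 fell (4.55%, beside 8.55%) after IFN-λ2. Traf1, a signalling adaptor and known NF-κB target, measured 605 and 686 units in control, 939, 951 and 1094 after IFN-λ2, with 653, 637 and 757 after IFN-β. The IFN-λ2 arrays were above all others, and Traf1 was 1.54-fold control (adjusted p = 0.0122) and 1.46-fold IFN-β (adjusted p = 0.0183). With normexp background correction neither difference of Traf1 was called. Rnf31, the catalytic subunit of the linear ubiquitin ligase complex, rose 1.45-fold after IFN-λ2 (adjusted p = 0.00425) and 1.51-fold after IFN-β (adjusted p = 0.0113, and 0.0861 with the block). Traf5 rose 1.46-fold (adjusted p = 0.00524), Myd88, the adaptor of most Toll-like receptors, 1.32-fold (adjusted p = 0.0215, and 0.0627 with the block, so not called there) and the muramyl dipeptide sensor gene Nod2 1.72-fold (adjusted p = 0.0258) after IFN-λ2. Myd88 was 1.32-fold control with IFN-β as well, not called there (adjusted p = 0.102). Nod2 was dim, at 28.9 and 34.9 units in control and 49.0, 49.7 and 67.0 after IFN-λ2. Among 14 kinases and IKK subunits, 2 rose after IFN-λ2 (14.3%, beside 10.03% of all probes) and 0 fell, and 1 was higher than after IFN-β (7.14%, beside 5.53%). Ikbkg, the scaffold subunit NEMO, measured 326 and 324 units in control, 400, 401 and 408 after IFN-λ2, with 296, 313 and 318 after IFN-β. These groups did not overlap, and Ikbkg was called higher after IFN-λ2 against control (log2 0.31 ± 0.06, adjusted p = 0.0190) and against IFN-β (0.38 ± 0.06, adjusted p = 0.00818). Tbk1, an IKK-related kinase, rose 1.28-fold (adjusted p = 0.0283), and the catalytic IKK genes were not called, with log2 differences from control of 0.15 for Chuk and -0.10 for Ikbkb after IFN-λ2.

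Of 22 further inhibitors and feedback genes, 5 were called higher after IFN-λ2 (22.7%, beside 10.03% of all probes) and 2 lower (9.09%, close to the 8.55% of all probes). Tnip3, an A20-binding inhibitor of NF-κB, had the largest difference between the IFNs in this list. It measured 31.0 and 33.5 units in control, 122, 144 and 126 after IFN-λ2, with 40.9, 70.5 and 38.5 after IFN-β. IFN-λ2 arrays were well clear of the others, at 4.05-fold control (log2 2.02 ± 0.25, adjusted p = 0.00260) and 2.71-fold IFN-β (adjusted p = 0.00940). The related Tnip1 rose 1.26-fold (adjusted p = 0.0234), Otulin, a deubiquitinase of linear chains, 1.26-fold (adjusted p = 0.0241) and Nfkbid, an atypical IκB gene, 1.24-fold (adjusted p = 0.0186). With the replicate block Tnip1 and Nfkbid were not called (adjusted p = 0.0660 and 0.0557). Bcl3, another atypical IκB gene, went the other way, from 5586 and 4885 units in control, 3635, 3446 and 3288 after IFN-λ2, with 4591, 4592 and 4629 after IFN-β. It fell by 0.60 on the log2 scale (± 0.08, adjusted p = 0.00406) and was lower than after IFN-β too (adjusted p = 0.0152). Sigirr, a negative regulator of IL-1 and Toll-like receptor signals, fell by 0.39 on the log2 scale (adjusted p = 0.00920). Nlrc5, an activator of MHC class I genes that also restrains NF-κB, was 4.38-fold after IFN-λ2 and 3.24-fold after IFN-β (adjusted p = 7.61e-05 and 0.000418), and its 2 probes disagreed on the order of the IFNs, with log2 differences between IFN-λ2 and IFN-β of 0.43 and, for the dimmer probe, -0.47.

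Known target genes made up the longest list, 38 tested genes of which IFN-λ2 raised 13 (34.2%, beside 10.03% of all probes) and lowered 2 (5.26%, beside 8.55%), and IFN-β raised 6 (15.8%, beside 1.44%). The list was chosen with earlier results of these data known, so its shares are a description and no test of NF-κB activity. The 2-fold changes after IFN-λ2 were in Cxcl10, Psmb9, Ccnd1, Tap1 and Irf1, all but Ccnd1 named above as genes that IFNs are known to induce. Cxcl10 (6.40-fold and 4.94-fold), Psmb9 (6.12-fold and 3.61-fold), Tap1 (3.59-fold and 3.12-fold) and Irf1 (2.20-fold and 1.82-fold), an attractant chemokine, an immunoproteasome subunit, a peptide transporter and a transcription factor, were called after IFN-λ2 and IFN-β respectively. The cyclin D1 gene Ccnd1 was 3.84-fold control after IFN-λ2 (adjusted p = 1.23e-05) and 1.35-fold after IFN-β (adjusted p = 0.0472, and 0.189 with the block), and 2.85-fold higher after IFN-λ2 than after IFN-β (adjusted p = 0.000145). The chemokine gene Cxcl16 (1.59-fold), the laminin subunit gene Lamb3 (1.40-fold) and the siderophore-binding protein gene Lcn2 (1.33-fold) were also higher after IFN-λ2 than after IFN-β, with adjusted p from 0.0116 to 0.0290, and Lamb3 was not called with the block (adjusted p = 0.0647).

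Of the 38 target genes, 6 were called higher after IFN-λ2 than after IFN-β (15.8%, beside 5.53% of all probes) and 4 lower (10.5%, beside 5.68%). The higher ones were Ccnd1, Cxcl16, Lamb3, Lcn2, Psmb9 (1.69-fold, adjusted p = 0.00413) and Vegfa, the gene of an endothelial growth factor (1.36-fold, adjusted p = 0.0170), the last named after its values were seen. A dimmer Vegfa probe had the same direction and was not called (log2 difference 0.22, adjusted p = 0.446). Cxcl5, a neutrophil attractant, measured 664 and 758 units in control, 519, 547 and 582 after IFN-λ2, with 909, 1026 and 1031 after IFN-β. The groups did not overlap, with control in the middle, and Cxcl5 was lower after IFN-λ2 than after IFN-β by a log2 difference of -0.85 ± 0.09 (adjusted p = 0.00216). The remaining genes of this list that were lower after IFN-λ2 than after IFN-β, named here after their values were seen, were Cxcl1 (-0.63, adjusted p = 0.0332), Ccl2 (-0.44, adjusted p = 0.0264) and Csf3 (-0.43, adjusted p = 0.0227), the last of which turned direction with normexp background correction. With the replicate block Cxcl1 and Csf3 were not called (adjusted p = 0.0922 and 0.0673). Against control, none of the 3 was called after either IFN. Csf1 depended on the probe: its brightest probe was 1.58-fold control after IFN-λ2 and 1.62-fold after IFN-β (adjusted p = 0.00741 and 0.0274, the latter 0.128 with the block), while its other 2 probes had log2 differences of -0.01 and 0.02 after IFN-λ2 and of 0.50 and 0.58 after IFN-β. These 2 probes were called lower after IFN-λ2 than after IFN-β (-0.52 and -0.56, adjusted p = 0.0136 and 0.0123), which the brightest, used for the counts, was not (-0.03, adjusted p = 0.880).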

How the data were processed

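Cy3-labelled RNA of each sample was hybridized to 1 single-colour array, Agilent's whole mouse genome design. Deposited by the authors were, per the file headers, the intensity of every feature as extracted with Feature Extraction 10.7.3.1, background-subtracted and not scaled between arrays, and a table of processed intensities. For member probes above its floor of 15 units that table equals the values used here times 1 constant per array, 0.909 to 0.928. The methods name RNeasy and the labels Trizol for RNA isolation.

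Following the methods, control features, outliers, features uneven in their pixels (coefficient of variation above 0.5) and features deviating from the other copies of their probe were dropped. Geometric means of features gave 1 value per probe. Each array was multiplied to bring its 75th percentile to 1500, values under 15 were raised to 15, and log2 was taken. A fit of 3 group means to all 8 arrays (limma 3.58.1, R 4.3.3, no block) gave moderated tests with Benjamini-Hochberg adjustment over the 25972 probes above 15 units on at least 2 arrays (25971 against control). The script was tested on simulated data. Of 12 member probes 11 were tested, each a single feature, well above background on all 8 arrays. Tables and figures used Python 3.11.15, numpy 2.4.6 and pandas 2.3.3. The number of arrays, 2 or 3 a group, limits the precision.

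Members and gene lists were chosen with earlier results of these data known. From the lists, genes with a called 2-fold change in any comparison and up to 5 others per list by the smallest adjusted p were named, further ones as stated. Where a list gene had several probes, the one of highest mean over the arrays stands for it. List genes were named by accession through a RefSeq gene table where that matched (26406 probes), otherwise by symbol.

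Replicate number and slide are the same. Deviations from the group means of the IFN-λ2 and IFN-β arrays with the same number correlated across probes at 0.181, 0.256 and 0.297, all over 0.1, so the numbers were taken to pair the arrays, and values with the replicate block are given where they change a call. A control replicate 1 was not analysed here. Alternatives were normexp background correction, quantile normalization, the deposited table, other floors and filters, the replicate block, other variance estimates and tests, and leaving out each array. That last one was added for the pathway lists after the data were seen.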

Additional observations from a re-analysis of the deposited data

How the results depend on the processing

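The signs of Birc3, Nfkbie, Nfkb2 and the called Relb probe in the comparison of IFN-λ2 with control held in each of the 10 alternative settings and in each of the 8 fits that left out 1 array. Their calls depended on the setting. The 4 member probes called higher after IFN-λ2 than control became 1 with normexp background correction, 2 with the replicate block (Nfkbie and Birc3), 1 with the methods' t-test and 7 with a trended robust variance, while the share of all probes called higher went from 10.03% to 6.14%, 7.22%, 3.80% and 11.95%, and between 0 and 5 when 1 array was left out. The 3 called between the IFNs became 1 with normexp (4.34% of all probes, from 5.53%), 1 with the replicate block (Birc3; 4.07%) and between 0 and 3 when 1 array was left out. Normexp moved the median of all tested probes for IFN-λ2 against control from 0.00 to 0.10 on the log2 scale, and relative to that median Birc3, Nfkbie, Nfkb2 and Relb were still higher. With the replicate block, 0 of the 11 probes were called for IFN-β against control, as without it, and the block changed no member call beyond those named here and in the comparisons above. Of the member probes not called against control after IFN-λ2, Tnfaip3 was called in 4 of the 10 settings and Nfkbia and the Relb probe A_51_P389751 in 2 each. The Relb probe A_55_P2168736, not called between the IFNs, was called there in 5.

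Directions turned for uncalled differences near 0. For the Nfkb1 probe A_55_P1968738, IFN-λ2 against control was 0.036 with normexp, 0.016 with quantile normalization, 0.0091 with the deposited table and 0.052 with the replicate block, and -0.14 to 0.10 when 1 array was left out. For Nfkbiz it was 0.0041 with normexp and -0.22 to 0.034 without 1 array. For IFN-β against control the turned values were 0.059 for the Nfkb1 probe A_55_P1968743 with normexp, -0.041 for Nfkb2 and -0.024 for Rela with quantile normalization, and -0.0087 for Nfkbiz and -0.011 for Birc3 with the replicate block. Without 1 array that comparison ranged from -0.030 to 0.14 and from -0.084 to 0.028 for the Nfkb1 probes, from -0.091 to 0.19 for Nfkbiz and from -0.056 to 0.14 for Birc3. Between the IFNs, the Nfkb1 probe A_55_P1968738 ranged from -0.19 to 0.045.

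Of the pathway genes, the 29 higher after IFN-λ2 than control became 18 with normexp, 21 with the replicate block and 18 to 28 without 1 array, and the 7 lower became 1 with normexp, 4 with the replicate block and 2 to 7 without 1 array. The 9 higher after IFN-β became 5 with the replicate block and 5 to 8 without 1 array. Between the IFNs, the 10 higher became 17 with quantile normalization and 5 to 12 without 1 array, and the 7 lower became 4 with normexp and 2 to 6 without 1 array. These counts are totals in each setting, which can include genes not called in the main fit. Of the genes called in the main fit, normexp still called 16 of the 29 and 1 of the 7 for IFN-λ2. It still called 7 of the 9 for IFN-β, and 6 of the 10 and 4 of the 7 between the IFNs. With the methods' t-test after Benjamini-Hochberg adjustment, 11 of the 29 and 1 of the 7 genes were still called for IFN-λ2, 0 of the 9 for IFN-β (all 9 were under an unadjusted p of 0.05), and 6 of the 10 and 3 of the 7 between the IFNs. The cause of these changes was not tested. Depth in the sense of signal limits the Rel probe, which was near background on 7 arrays.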
